A study of Mus musculus with 12 samples.

Results

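The genes described here encode the machinery by which the proximal tubule takes back filtered protein, and they are the 7 genes Lrp2, Cubn, Amn, Lrpap1, Dab2, Clcn5 and Ocrl, taken by symbol from a table of 23420 genes. All 7 were in the table and all 7 passed the low-count filter that left 11664 genes. They were measured by mRNA sequencing of kidney tissue from male C57BL/6J mice, which the study's methods give as 8 to 15 weeks old. The control kidneys (n = 4) were removed by nephrectomy as normal tissue, although the labels carry the same ischemia protocol for them as for the other kidneys. The 8 other kidneys had 20 min of clamping of the renal pedicle and were collected 24 h later, and the study asked how anaesthesia with ketamine and xylazine during the clamping altered the response. Their labels contradict each other. Ischemia set A (n = 4) is titled anaesthetised and has conscious in its group field, while ischemia set B (n = 4) is titled conscious and has anesthesia in its group field, so no direction is given to anaesthesia. Total counts per kidney were 15367342 to 44793350. The total was lowest in replicate 4 of set B, the kidney that also had the lowest Lrp2 and Cubn levels, and results that rest on it are given without it.

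Megalin, encoded by Lrp2, and cubilin, encoded by Cubn, are large receptors in the brush border of the proximal tubule. They bind albumin, vitamin carriers, hormones and other proteins that pass the glomerular filter, and carry them into clathrin-coated pits. Cubilin has no membrane anchor of its own and reaches the surface together with amnionless, the product of Amn. The receptor-associated protein encoded by Lrpap1 is a chaperone that keeps megalin free of ligand in the endoplasmic reticulum. Dab2 is an adaptor that links the cytoplasmic tail of megalin to clathrin. Clcn5 encodes an endosomal chloride-proton exchanger that takes part in the acidification of endosomes, and Ocrl encodes an inositol polyphosphate phosphatase of the endosomal membrane. Inherited defects of CLCN5 and OCRL in humans cause Dent disease and Lowe syndrome, in which filtered protein is lost in the urine.

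After ischemia the RNA of both receptors fell in both sets, by 6.68-fold and 7.05-fold for Lrp2 and by 4.89-fold and 4.54-fold for Cubn. The adaptor Dab2 was lower in both sets by less. The chaperone Lrpap1 was also called lower in both, but its set A call held under 8 of 19 alternatives of the analysis. The cubilin partner Amn had all its ischemic values below the controls, and its calls varied with the analysis. Its set B fall passed the test and held under 10 of the 19, its set A value passed under 3 of them, and the difference of the sets did not pass (edgeR adjusted p = 0.9997). No change was detected for the exchanger Clcn5 or the phosphatase Ocrl. The promoter windows of Lrp2, Cubn and Amn are shown because each held 1 of the motifs searched, in genes that encode the receptors and the partner of cubilin. The windows were taken from the RefSeq promoters of mm10 (250 bases before to 50 after each start, 9 windows for the 7 genes). Each was cut at the RefSeq start, or earlier at the first base in an annotated exon of the same gene. Capitals mark the motif in each. Lrp2 lies on the minus strand of chromosome 2 and its window is chr2:69586066-69586279. Cubn lies on the minus strand of the same chromosome, with the window chr2:13491877-13492126. Amn lies on the plus strand of chromosome 12, with the window chr12:111270846-111271094.
Lrp2: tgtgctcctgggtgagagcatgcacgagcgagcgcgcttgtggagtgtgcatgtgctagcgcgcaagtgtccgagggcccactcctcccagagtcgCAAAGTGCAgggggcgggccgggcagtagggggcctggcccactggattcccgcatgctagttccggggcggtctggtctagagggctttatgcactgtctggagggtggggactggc
Cubn: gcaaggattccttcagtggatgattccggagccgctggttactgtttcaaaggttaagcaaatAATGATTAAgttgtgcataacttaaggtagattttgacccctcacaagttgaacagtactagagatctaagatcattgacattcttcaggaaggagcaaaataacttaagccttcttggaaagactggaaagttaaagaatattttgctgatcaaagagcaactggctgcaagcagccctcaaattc
Amn: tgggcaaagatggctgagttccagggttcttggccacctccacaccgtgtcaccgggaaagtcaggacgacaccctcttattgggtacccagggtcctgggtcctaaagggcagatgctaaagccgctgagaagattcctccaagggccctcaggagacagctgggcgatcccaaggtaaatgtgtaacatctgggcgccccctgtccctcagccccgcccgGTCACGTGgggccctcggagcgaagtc

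The capitals in the Lrp2 window are a match to CAAAGTNCA, a form of the element bound by HNF4 factors, which begins 154 bases before the RefSeq start and occurred in 1.41% of 32851 promoter windows taken whole, before any trimming. The Cubn window held AATNATTAA, the core of the HNF1 palindrome, 187 bases before the start, a motif found in 1.47% of all whole windows. In Amn the capitals mark GTCACGTG, an E-box of the type read by TFEB, 28 bases before the start, which was present in 2.25% of windows. The direct repeat bound by dimers of PPAR and RXR was in 0.0396% of windows and in none of the 9 windows of the 7 genes. Both strands were searched, each of the other motifs was found in 1 of the 9 windows, no match overlapped another, and the letters were chosen after these promoters had been seen.

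Lrp2 (chr2:69424340-69586065 of mm10, minus strand) is the megalin gene. Its level, in CPM (read counts scaled to library size, with TMM factors), was 740.1, 719, 837 and 764 in the 4 control kidneys. The ischemic kidneys had 94.9, 178, 91.0 and 94.6 CPM for set A and 187, 112, 94.9 and 39.2 CPM for set B. Every ischemic kidney was below every control kidney, and the highest of them, replicate 1 of set B, did not reach a level near the lowest control. Lrp2 fell by 2.74 on the log2 scale in set A (SE 0.32, adjusted p = 2.34e-06), and it fell by 2.82 in set B (SE 0.32, adjusted p = 1.85e-06), by the quasi-likelihood F-test of edgeR, adjusted after Benjamini-Hochberg for all genes tested. These changes are 6.68-fold and 7.05-fold, with 95% confidence limits of 4.20 to 10.6 and of 4.42 to 11.2. Without replicate 4 of set B, Lrp2 fell by 2.54 in set B. In bulk tissue, fewer proximal tubule cells and less of an RNA per cell cannot be told apart.

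The control level of Lrp2 was the most even of the 7 genes, with a coefficient of variation of 6.70% over the 4 kidneys. That spread was 36.8% for set A and 56.2% for set B. The set A value rests on replicate 2, which stood above 3 kidneys that were close together, and without it the coefficient of variation was 2.36%, below that of the controls. Without replicate 4, set B had 37.1%.

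Cubn (chr2:13276338-13491813, minus strand), the cubilin gene, was at 60.9, 42.2, 49.6 and 44.0 CPM in the controls. It was at 8.22, 15.7, 5.77 and 10.7 CPM in set A, and at 19.0, 12.9, 6.14 and 5.08 CPM in set B. The ischemic kidneys were again all below the controls. The change was -2.29 on the log2 scale in set A (SE 0.40, edgeR adjusted p = 2.17e-04) and -2.18 in set B (SE 0.40, edgeR adjusted p = 3.41e-04). Expressed as folds, Cubn was 4.89-fold lower for set A and 4.54-fold lower for set B. Without replicate 4 of set B the set B change was -1.95. The gene shares 368 exon bases with Gm13270 on the opposite strand, and the strand setting of the counting is not given in the sources used here.

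Amn (chr12:111271095-111276426, plus strand), the partner of cubilin, was expressed at a low level. Control kidneys had 12.03, 14.8, 3.43 and 11.1 CPM, so that replicate 3 stood below the other controls. Set A had 1.24, 2.40, 1.08 and 1.81 CPM, and set B had 1.85, 0, 0 and 2.29 CPM. Replicates 2 and 3 of set B had no count, which at a floor of 3 counts allows up to 0.190 and 0.145 CPM. All ischemic kidneys lay below all controls. The log2 change was -2.67 in set A, which did not pass the test (SE 1.12, edgeR adjusted p = 0.101), and -3.31 in set B, which did (SE 1.15, edgeR adjusted p = 0.0439). The set B call was lost in 8 of the 12 fits that left out a kidney, with adjusted p between 0.0263 and 0.122, and was kept without control replicate 3, set A replicates 2 or 4, or set B replicate 4. For set A, leaving out set B replicate 3 gave an adjusted p of 0.0447.

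Lrpap1 (chr5:35091501-35105766, minus strand), the chaperone of megalin, had 10.9, 17.98, 7.02 and 7.97 CPM in the controls. It had 1.78, 1.84, 4.03 and 1.93 CPM for set A and 0.370, 3.10, 0.435 and 2.48 CPM for set B. No ischemic kidney reached the lowest control, and 2 kidneys of set B rested on 11 and 9 counts. The log2 change was -2.19 in set A (SE 0.76, edgeR adjusted p = 0.0435) and -2.79 in set B (SE 0.78, edgeR adjusted p = 0.0126). The set A call was lost without any 1 of the 4 controls or of the 4 set A kidneys, where the adjusted p was up to 0.187. The set B call was lost only without control replicate 2, at an edgeR adjusted p of 0.0737.

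Dab2 (chr15:6299788-6440712, plus strand), the clathrin adaptor, fell by less. The controls had 350.3, 432, 574 and 498 CPM. Set A had 230.0, 288, 263 and 331 CPM, all below the controls, whereas set B had 357, 306, 328 and 244 CPM. Replicate 1 of set B was above control replicate 1, so those groups overlapped. The log2 change was -0.74 in set A (SE 0.16, edgeR adjusted p = 0.00174) and -0.59 in set B (SE 0.16, edgeR adjusted p = 0.0102). A pseudogene on the opposite strand, Gm18888, shares 211 exon bases with Dab2.

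Clcn5 (chrX:7153810-7319358, minus strand) had 185, 219, 197 and 156 CPM in the controls, 158, 156, 186 and 165 CPM for set A and 242, 203, 192 and 137 CPM for set B. The groups overlapped in both comparisons. The log2 change was -0.19 in set A, with a 95% confidence interval from -0.52 to 0.14, and 0.03 in set B, from -0.30 to 0.36 (edgeR adjusted p = 0.503 and 0.936). These intervals hold no fall as large as that of either receptor.

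Ocrl (chrX:47912387-47965868, plus strand) was at 18.9, 12.6, 7.56 and 17.9 CPM in the controls, at 23.2, 14.4, 16.1 and 14.3 CPM for set A and at 16.6, 26.7, 18.9 and 27.5 CPM for set B. The groups overlapped, with the 2 highest kidneys both in set B. The log2 change was 0.26 in set A (95% confidence interval -0.44 to 0.95, edgeR adjusted p = 0.705) and 0.65 in set B (-0.04 to 1.35, edgeR adjusted p = 0.186). Without control replicate 3, the lowest control, these changes were 0.03 and 0.43.

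**Figure D1:**
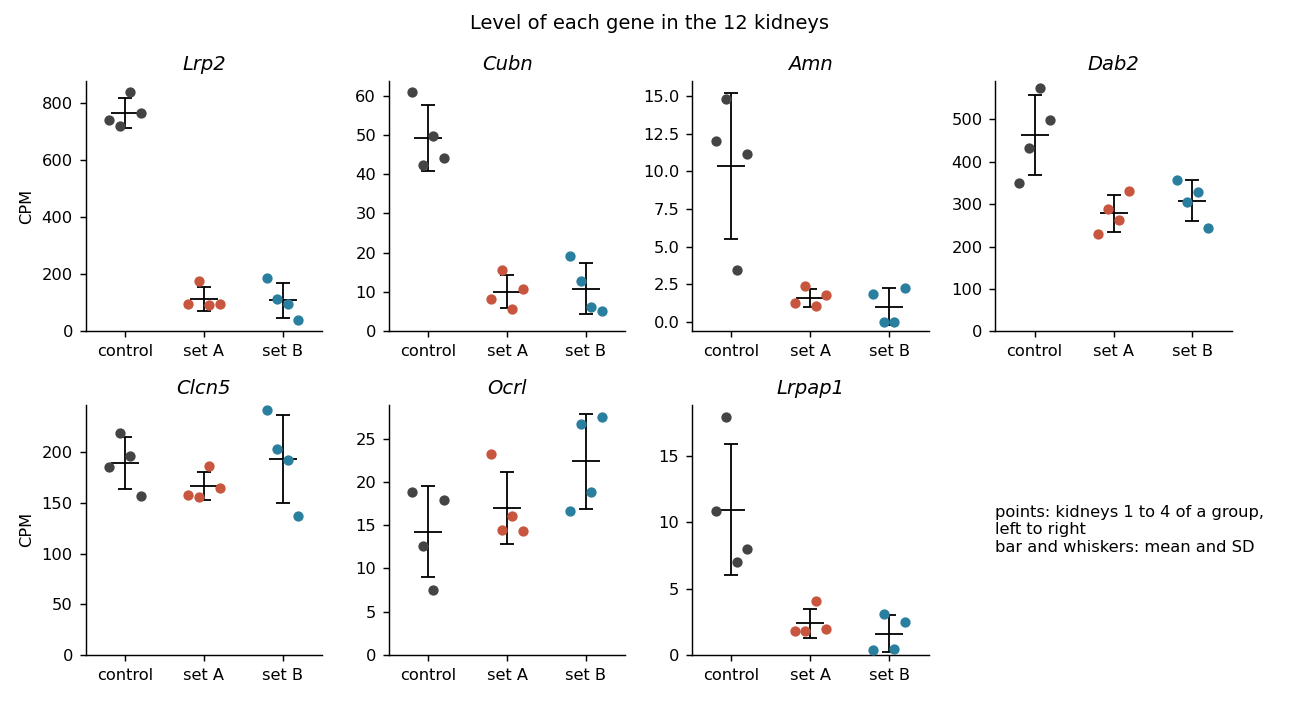
CPM (linear axes) of the 7 genes in 4 control kidneys and the 4 kidneys of each ischemia set, with the mean and SD. Lrp2, Cubn, Amn and Lrpap1 of every ischemic kidney lie below every control, Dab2 does so in set A, and Clcn5 and Ocrl overlap.

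Of the 7 genes, 4 passed the test in set A against control and all 4 were lower (Lrp2, Cubn, Dab2 and Lrpap1), where 22.3% of all genes tested passed and 11.7% were lower. In set B, 5 passed, all lower (the same 4 and Amn), against 22.8% of all genes and 11.9% lower. The set A kidneys lay wholly below the controls for 5 of the 7 genes, where this held for 15.7% of all genes, and the set B kidneys for 4 of the 7, where it held for 15.1%. For each of these the two-sided exact permutation test gave p = 0.0286, the smallest that 4 kidneys against 4 allow, and for Dab2 in set B it gave p = 0.0571. The median log2 change of the 7 genes was -2.19 for set A and -2.18 for set B, and that of all genes tested was -0.02 in each. The 2 comparisons share their control kidneys.

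**Figure D2:**
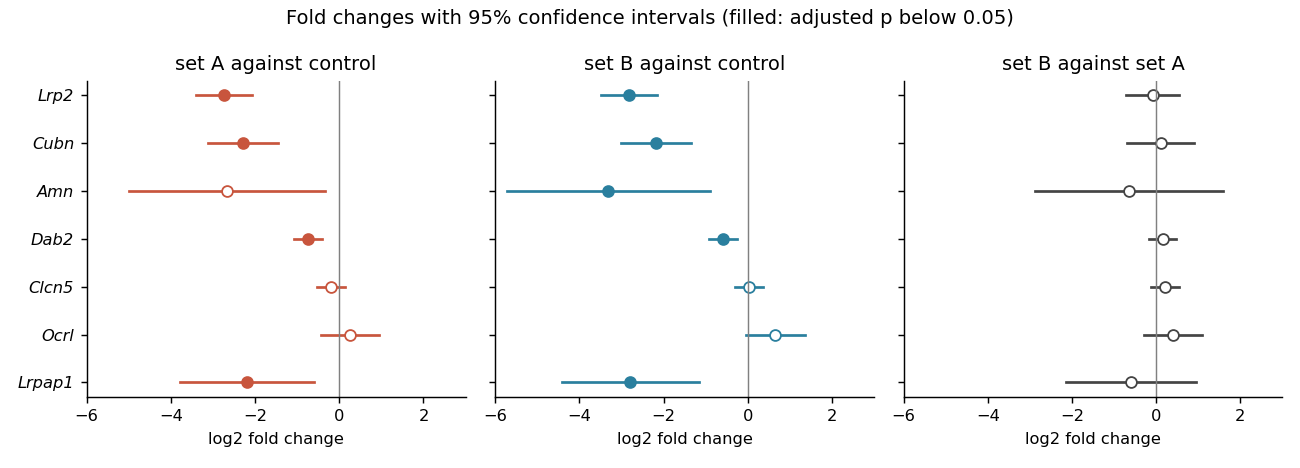
Log2 fold changes of the 7 genes with 95% confidence intervals in the 3 comparisons, from the fit of all 12 kidneys, with filled points for an adjusted p below 0.05. The intervals of Lrp2 and Cubn lie far below 0 in both comparisons with control, those of Amn and Lrpap1 are wide, and all intervals of set B against set A include 0.

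None of the 7 genes passed the test between the ischemia sets. All 7 had an edgeR adjusted p of 0.9997 in set B against set A, where 1 of the 11664 genes passed (0.00857%), and all 7 overlapped between the sets, as against 2.61% of all genes whose sets did not overlap (1.32% lower and 1.29% higher in set B). Without adjustment the count below 0.05 was also 0 of 7, with the smallest p at 0.183 for Clcn5, where 5.03% of all genes were below 0.05. None of the 7 passed in DESeq2 or limma-trend. The log2 difference was -0.08 for Lrp2 (95% confidence interval -0.71 to 0.55), 0.10 for Cubn (-0.69 to 0.90) and 0.15 for Dab2 (-0.18 to 0.48). The intervals were wider for the low genes, from -2.88 to 1.59 for Amn and from -2.14 to 0.94 for Lrpap1. Clcn5 had a difference of 0.22 (-0.11 to 0.55) and Ocrl one of 0.40 (-0.30 to 1.09). The sign of the Lrp2 and Cubn differences turned when single kidneys were left out, over -0.48 to 0.21 for Lrp2 and -0.32 to 0.40 for Cubn.

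Levels of different genes are set side by side here per length, as CPM per kilobase of annotated exons. Length does not correct for reads lost or gained in the counting, so the order between genes is approximate. Among the listed genes, Atp6v0c and Hba-a1 had no count in any kidney, and B2m had at most 43. Dab2 led the controls at 63.1 ± 12.9 CPM per kilobase (SD, n = 4), followed by Lrp2 at 45.8 ± 3.07, and the ranges of these neighbours overlapped. Clcn5 came next at 16.5 ± 2.26 CPM per kilobase, apart from both neighbours. Below it were Amn at 5.62 ± 2.64, Cubn at 3.29 ± 0.563, Lrpap1 at 2.66 ± 1.21 and Ocrl at 1.502 ± 0.553 CPM per kilobase, each overlapping the next. After ischemia Dab2 remained first, at 37.9 ± 5.83 for set A and 42.0 ± 6.54 CPM per kilobase for set B. Clcn5 came next at 14.5 ± 1.20 and 16.9 ± 3.77, and Lrp2 after it at 6.86 ± 2.52 and 6.48 ± 3.64 CPM per kilobase. Ocrl, the last gene in the controls, followed Lrp2 by mean in both sets, at 1.79 ± 0.443 and 2.36 ± 0.580 CPM per kilobase. In set B the ranges of Lrp2 and Ocrl overlapped, and in replicate 4 Ocrl was above Lrp2 (2.904 against 2.348 CPM per kilobase).

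The falls of Lrp2 and of Dab2 were unequal. Lrp2 per Dab2, as a ratio of CPM per kilobase, was 0.744 ± 0.129 in the controls (SD, n = 4), 0.183 ± 0.0635 for set A and 0.147 ± 0.0666 for set B. The ischemic and control ratios did not overlap, and the log2 ratio changed by -2.07 for set A and by -2.45 for set B (two-sided exact permutation test, p = 0.0286 in each, adjusted p = 0.0457 over 8 ratio comparisons by Benjamini-Hochberg). Lrp2 per Clcn5 went from 2.82 ± 0.452 to 0.480 ± 0.203 and 0.361 ± 0.137, with the same p. Lrp2 per Cubn was 14.2 ± 2.21 in the controls, 10.6 ± 2.56 for set A and 9.32 ± 3.09 for set B, ranges that overlapped (exact permutation p = 0.0571 and adjusted p = 0.0653 in each set). Dab2 per Clcn5 changed by -0.55 for set A and by -0.59 for set B, and its exact permutation p was 0.0857 and 0.0286 (adjusted p = 0.0857 and 0.0457). The pairs were not planned and were picked with earlier results of these genes known. The adjustment does not cover that choice, so the ratios are a description.

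The defining genes of the proximal tubule fell as well. Of 14 markers, 13 passed for set A and 14 for set B against control, all lower, with median log2 changes of -2.48 and -2.35, and their summed level went from 10050 to 11200 CPM in the controls to 1746 to 2664 CPM for set A and 1133 to 2884 CPM for set B. Slc34a1, the brush border phosphate transporter, made up 45.3% to 46.8% of that sum in the controls and 15.9% to 24.1% of it in the ischemic kidneys. Relative to the sum in the same kidney, Lrp2 changed by -0.38 on the log2 scale for set A and by -0.49 for set B, and Cubn by 0.06 and 0.16. Without replicate 4 of set B the set B change of Lrp2 was -0.30. The size and sign of the Cubn values rested on single kidneys, being 0.26 without replicate 3 and -0.04 without replicate 2 in set A, and 0.46 without replicate 3 and -0.06 without replicate 2 in set B. The Lrp2 ratio lay below the lowest control in 6 of the 8 ischemic kidneys and within the control range in the others, while the Cubn ratio lay below the controls in 2 and above them in 3. Dab2 was higher relative to the markers by 1.69 and 1.95, Clcn5 by 2.24 and 2.54, and Ocrl by 2.73 and 3.23. In CPM, Dab2 was itself lower and no change was detected for Clcn5 or Ocrl, so these higher ratios reflect the lower marker sum. Amn and Lrpap1 varied widely in set B, over log2 ratios of -14.4 to -8.89 and -12.6 to -8.78. The ratios were formed with 0.1 CPM added to each gene and are a description without a test. With the median log2 CPM of the markers in place of their sum, the set A change of Lrp2 was -0.15.

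**Figure D3:**
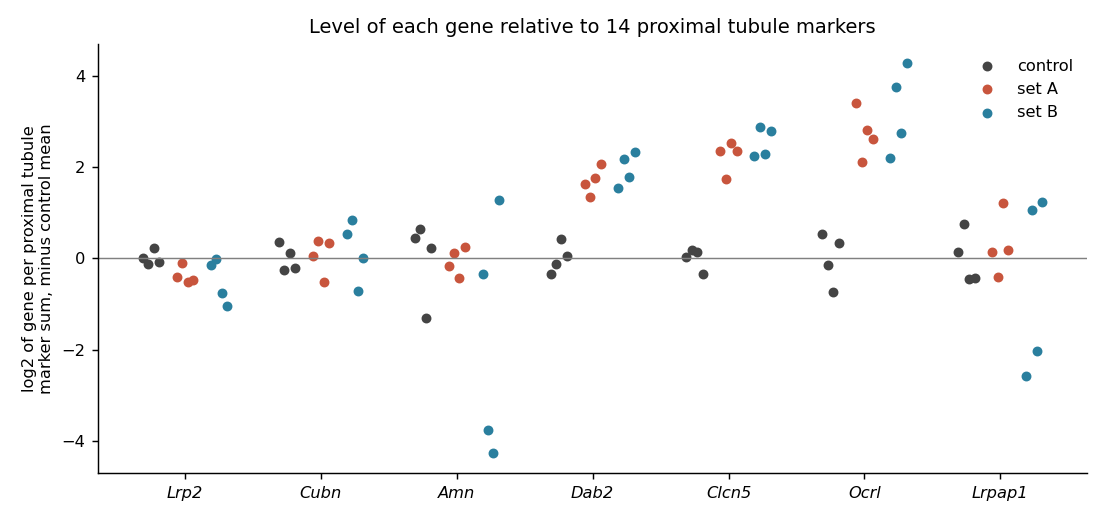
Log2 ratio of each gene to the summed CPM of 14 proximal tubule markers in each of the 12 kidneys, minus the control mean of that gene. Lrp2 lies below the lowest control in 6 of the 8 ischemic kidneys and Cubn lies on both sides of the controls, while Dab2, Clcn5 and Ocrl lie above them in every ischemic kidney.

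Markers of other cells moved too. The summed level of 4 injured tubule markers was 0.650 to 3.74 CPM in the controls, 53.8 to 99.6 CPM for set A and 39.3 to 97.3 CPM for set B. That of 3 fibroblast markers was 354 to 456 CPM in the controls and 767 to 2231 CPM in the ischemic kidneys, nearly all of it Col1a1. The sum of 5 macrophage and leucocyte markers was 53.5 to 73.0 CPM in the controls and 14.1 to 36.4 CPM after ischemia, and that sum was mostly Csf1r, the 1 gene of the 5 that passed (52.1 ± 9.05 CPM in the controls, 13.5 ± 5.25 and 10.5 ± 6.53 CPM in the sets). Ptprc, the common leucocyte antigen, was at 2.96 ± 2.21, 3.84 ± 2.71 and 4.39 ± 4.94 CPM and did not pass. The sum of 3 red blood cell markers was 56.9 to 123 CPM in the controls and 14.7 to 48.5 CPM after ischemia. Sums for 3 thick ascending limb markers were 1584 to 1681 CPM and 257 to 739 CPM, mostly the transporter Slc12a1 (1511 ± 42.3 CPM in the controls, 179 ± 16.5 and 256 ± 184 CPM in the sets), while Umod, which encodes uromodulin, was at 115 ± 3.25, 128 ± 35.1 and 128 ± 58.3 CPM and did not pass. For 3 podocyte markers they were 72.9 to 93.0 CPM and 99.8 to 164 CPM, and the ranges overlapped between control and ischemic kidneys for the distal convoluted tubule, the collecting duct and the endothelium. Among the markers, Hba-a1 had no count in any kidney, Alas2, Dcn and Pvalb had none in set B, and Havcr1 and Lcn2 had 1 count each over the 4 controls. The part of these cells in the levels of the 7 genes was not tested.

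Within the 8 ischemic kidneys, Cubn followed Lrp2. Pearson's r of log2 CPM was 0.854 (exact permutation p = 9.92e-04, adjusted p = 0.00695 over 7 relations) and Spearman's rho was 0.905 (exact permutation p = 0.00456, adjusted p = 0.0319). Without the 2 kidneys farthest from the median of Lrp2, r was 0.787. The summed proximal tubule markers had r = 0.909 with Lrp2 (exact permutation p = 0.00498, adjusted p = 0.0174) and rho = 0.690 (exact permutation p = 0.0694, adjusted p = 0.239), and r = 0.663 without the 2 farthest kidneys. The 5 other genes did not pass, with r between -0.59 for Ocrl and 0.63 for Clcn5. The sets hold 4 kidneys each, too few for a correlation within a set.

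**Figure D4:**
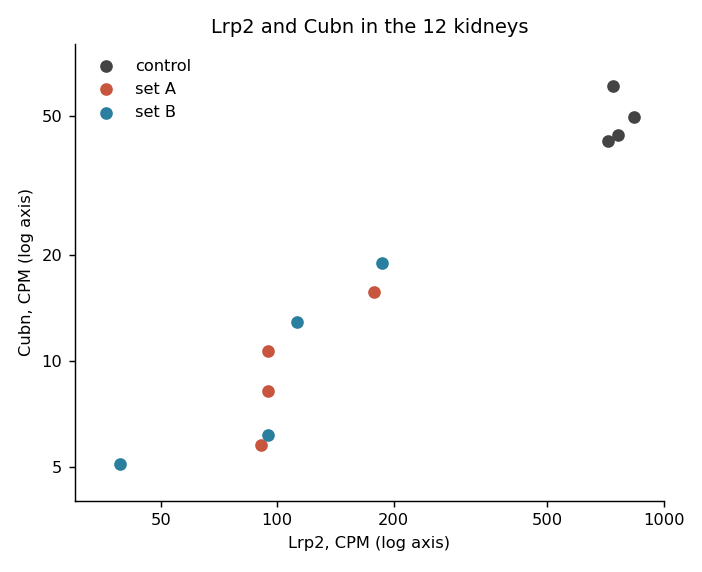
Lrp2 against Cubn in CPM on log axes, 1 point for each of the 12 kidneys. The controls form a group at the upper right, and among the 8 ischemic kidneys the 2 with the highest Lrp2, replicate 1 of set B and replicate 2 of set A, also have the highest Cubn.

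Among the genes whose log2 CPM was most like that of Lrp2 over the 12 kidneys were Ghr (r = 0.992), Slc27a2 (r = 0.988), Tm9sf3 (r = 0.987) and Gramd1b (r = 0.986). Ghr encodes the growth hormone receptor, and Slc27a2 a fatty acid transporter and acyl-CoA synthetase. Cubn had rank 63 in that order. For Cubn the leading genes were Ap1g1 (r = 0.981), Bend5 (r = 0.978), Slc27a2 (r = 0.976), Acsm2 (r = 0.975) and Suclg2 (r = 0.973), and Lrp2 had rank 7. These values are a description, since over 12 kidneys they are set largely by the gap between control and ischemic kidneys. Over the 8 ischemic kidneys the order changed. Elavl1 then led for Lrp2 (r = 0.988), with Ghr at rank 4 and Cubn at rank 239, and Atp5g3 led for Cubn (r = 0.972), with Slc27a2 at rank 3 and Lrp2 at rank 77.

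In the pathway lists that follow, counts can be read against all genes tested, of which 10.5% were called higher and 11.7% lower in set A, and 10.9% higher and 11.9% lower in set B. Genes of the coat on which the receptors gather moved in both directions. Of 16 clathrin coat and adaptor genes, 4 were higher and 4 lower in set A, and 5 were higher and 5 lower in set B. Myo6, the motor that carries coated vesicles inward, went from 367 ± 19.6 CPM (SD, n = 4) to 173 ± 22.9 for set A and 202 ± 31.1 for set B (log2 change -1.08 and -0.86, edgeR adjusted p = 5.58e-06 and 7.75e-05). Ap2b1, a subunit of the AP-2 adaptor, rose from 421 ± 28.8 to 713 ± 39.2 and 778 ± 36.9 CPM (log2 change 0.76 and 0.89, edgeR adjusted p = 1.27e-05 and 2.12e-06). Gipc1, which joins the megalin tail to Myo6, rose by 0.93 and 1.29 on the log2 scale (edgeR adjusted p = 0.0310 and 0.00352).

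Among 18 genes of endosomal sorting and recycling, 2 were higher and 3 lower in set A, and 3 were higher and 2 lower in set B, which is near the share of all genes called. Rab11fip3, an effector of the recycling endosome, had the largest fall among those that passed in set A, from 224 ± 22.8 CPM to 55.0 ± 5.07 and 72.8 ± 9.77 CPM (log2 change -2.02 and -1.62, edgeR adjusted p = 7.50e-09 and 1.22e-07). Rab5c, a GTPase of early endosomes, changed by -1.05 and -0.75 on the log2 scale (edgeR adjusted p = 1.34e-04 and 0.00298). Appl1, an adaptor of early endosomes, rose by 0.65 in each set (edgeR adjusted p = 0.00382 and 0.00378).

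Of the subunits of the proton pump that acidifies endosomes, 16 of 17 listed were tested. In set A, 1 was higher and 6 were lower, and in set B, 1 was higher and 4 were lower. Atp6v1a, the catalytic subunit, was at 174 ± 10.6 CPM in the controls, 71.8 ± 16.6 for set A and 73.1 ± 9.60 for set B (log2 change -1.27 and -1.25, edgeR adjusted p = 1.28e-05 and 1.68e-05). Atp6v1e1 changed by -0.90 and -0.70, and Atp6v0d1 by -0.89 and -0.75, and both passed in both sets.

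Of 10 genes of lysosomal processing, 1 was higher and 3 were lower in set A, and 1 was higher and 4 were lower in set B. Ctsd, the aspartic protease cathepsin D, rose from 66.5 ± 12.4 CPM to 197 ± 37.4 and 257 ± 88.0 CPM (log2 change 1.56 and 1.95, edgeR adjusted p = 1.54e-05 and 1.27e-06). Lamp2, a lysosomal membrane protein, was at 207 ± 8.90 CPM in the controls, 70.2 ± 15.3 for set A and 75.6 ± 13.4 for set B, and Ctsh, a cysteine protease, was lower in both sets.

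**Figure D5:**
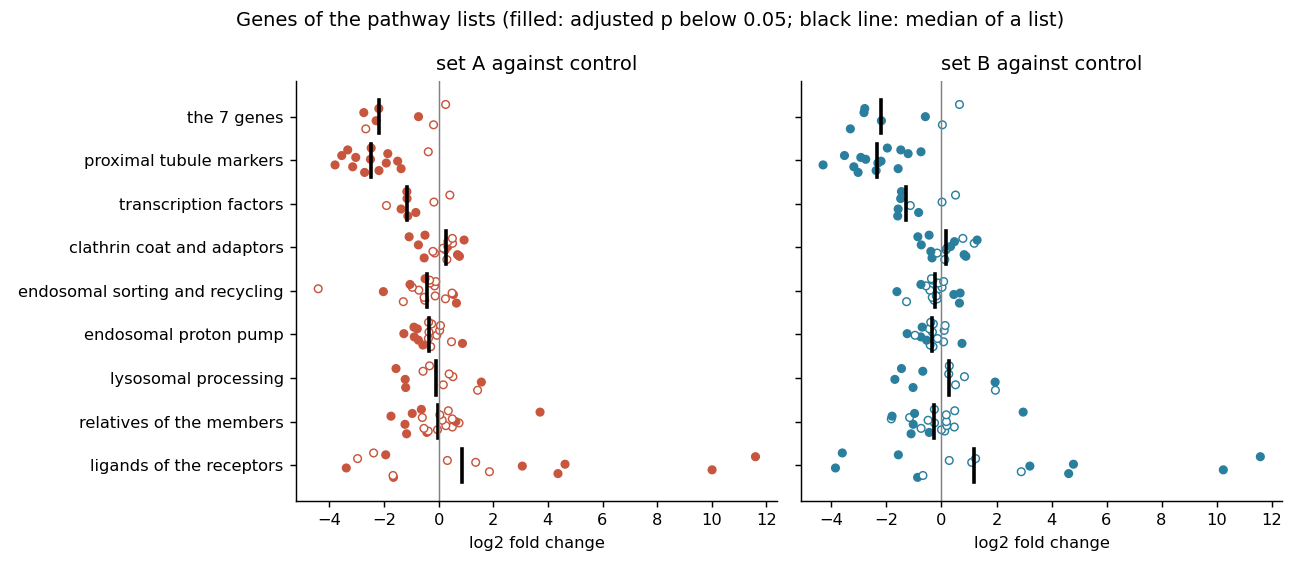
Log2 fold changes against control of the tested genes in 9 lists, with set A on the left and set B on the right, filled points for an adjusted p below 0.05 and a black line at the median of a list. The 7 genes and the proximal tubule markers have medians below -2, the other pathway lists have members on both sides of 0, and fitted values near 10 and above, Lcn2 among them, depend on the prior count.

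Some of the proteins that the receptors bind are also made in the kidney. Of 18 listed ligands 14 were tested, with 5 higher and 3 lower for set A and 5 higher and 4 lower for set B. Lcn2, the iron-carrier lipocalin that is also on the injured tubule list, had at most 1 count in a control kidney and reached 13.0 ± 7.42 CPM (SD, n = 4) for set A and 15.3 ± 8.503 CPM for set B, at least 125-fold and 147-fold higher against the mean control floor of 3 counts per library. Mt2, a metallothionein, went from 16.1 ± 7.57 CPM to 399 ± 86.1 and 449 ± 204 CPM (log2 change 4.63 and 4.80, edgeR adjusted p = 5.93e-09 and 3.70e-09). Lpl, the listed ligand with the highest control level, fell from 1243 ± 225.5 CPM to 119 ± 33.9 and 85.8 ± 11.3 CPM (log2 change -3.38 and -3.86, edgeR adjusted p = 1.51e-10 and 5.18e-11). Apob and Tcn2 were also called lower in both sets. Albumin RNA was not tested, with at most 9 counts in any kidney.

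The relatives of the members did not move as 1 group. Of 19 tested, 2 were higher and 6 lower in set A, and 1 was higher and 5 were lower in set B. Lrp8, a receptor of the same family as Lrp2, was at 3.59 ± 1.56 CPM in the controls, 47.0 ± 16.3 for set A and 28.1 ± 11.1 for set B (log2 change 3.71 and 2.97, edgeR adjusted p = 5.31e-07 and 6.43e-06). Lrp4 went the other way, from 221 ± 13.5 CPM to 66.0 ± 7.30 and 63.6 ± 15.9 CPM (log2 change -1.74 and -1.80, edgeR adjusted p = 2.69e-07 and 1.97e-07). Lrp1 and Vldlr passed in set A with log2 changes of 0.63 and -0.63 (edgeR adjusted p = 0.0204 and 0.00436) and not in set B, at 0.18 and -0.26, and neither passed in set B against set A (edgeR adjusted p = 0.941 for each). Dab1, a relative of Dab2, did not pass in either set.

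Among relatives of Clcn5 and Ocrl, Inpp5b, Clcn3 and Clcn4-2 were called lower in both sets and Clcn7 in neither. Inpp5b, the paralog of Ocrl, was at 122 ± 25.2 CPM in the controls, 52.0 ± 6.81 for set A and 59.8 ± 16.2 for set B (log2 change -1.23 and -1.03, edgeR adjusted p = 1.77e-04 and 9.91e-04). Clcn3 changed by -1.17 and -1.11 and Clcn4-2 by -0.43 and -0.45 on the log2 scale, and both passed in both sets. Whether these changes differ from those of Ocrl and Clcn5 was not tested. The Clcn4-2 change lies within the confidence interval of the Clcn5 change in set A and below it in set B. The Clcn3 change lies below that interval in both sets.

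Of 8 transcription factors of the proximal tubule and of lysosomal genes, none was higher and 5 were lower in each set. Hnf4a, which is also on the proximal tubule list, was at 1491 ± 93.3 CPM in the controls, 575 ± 133 for set A and 499.9 ± 203 for set B (log2 change -1.37 and -1.58, edgeR adjusted p = 1.09e-04 and 2.48e-05). Vdr, the vitamin D receptor, changed by -1.16 and -1.46, and its partner Rxra by -1.16 and -1.48, and each passed in both sets. Of all pathway and proximal tubule lists, 1 gene passed the test between the sets, the lactate transporter Slc5a12, at 13.6 ± 3.35 CPM for set A and 48.9 ± 23.4 CPM for set B (log2 difference 1.85, edgeR adjusted p = 0.0328). This call held under 7 of 19 alternatives. It was lost in the fit of 2 groups (adjusted p = 0.696), in limma-trend (adjusted p = 0.0607) and in 10 of the 12 fits that left out a kidney, all but those without replicate 2 or replicate 4 of set B.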

How the data were processed

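RNA from 12 mouse kidneys (4 control, 4 ischemia set A, 4 ischemia set B) was sequenced as single reads from stranded mRNA libraries. Per the labels and the study's methods, the authors aligned reads with STAR to mm10 and used HTSeq to count them over genes. Their deposited table holds raw counts for 23420 genes, not normalized. Tool versions, the annotation release, the strand setting and any removal of duplicates are not given in the sources used here. Kidneys were grouped by their titles, and no sample was left out. By the series design each group is 4 mice.

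The analysis was run in R 4.3.3 using edgeR 4.0.16. The default filter (minimum count 10, minimum total 15) kept 11664 genes, TMM factors lay between 0.968 and 1.03, and a negative binomial model with 1 coefficient per group was fitted to all 12 kidneys. The 3 comparisons were each tested by a quasi-likelihood F-test (two-sided), with Benjamini-Hochberg adjustment for all tested genes and a threshold of 0.05. Exact permutation tests of CPM were added for the 7 genes. A floor of 3 counts corresponded to 0.0661 to 0.190 CPM and covers counting error only. Exon lengths and gene positions came from GENCODE vM21 on mm10, and promoters from RefSeq on mm10. Of the 157 listed genes, 4 were matched by an older symbol. On simulated counts for set A against control, with 11008 genes in the fit, 30 of 92 genes changed 2-fold and 54 of 96 changed 4-fold were recovered, none with the wrong sign. The rest was computed in Python 3.11.15 (pandas 2.3.3, SciPy 1.17.1, NumPy 2.4.6; figures in matplotlib 3.10.9).

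The 7 genes and all lists were chosen with earlier results of these data known. Named beside the 7 genes were, from each pathway list, up to 3 genes past the threshold with the largest change in set A, fixed relatives, and for Lrp2 and Cubn the 5 genes most like them. Some genes that this rule names are not reported here. Genes named outside that rule (Slc34a1, Col1a1, Slc5a12, albumin, Lpl, Apob, Tcn2, Atp6v0c, B2m and other single markers) were chosen after their values were seen. Results were recomputed with limma-trend (limma 3.58.1), with DESeq2 1.42.0, with RLE factors, without the low-count filter, with genes above 1 CPM in 4 or more kidneys, with 2 groups in the fit, with a block for the replicate number, without each kidney in turn, with another marker summary and, for likeness, over the 8 ischemic kidneys alone. Leaving out kidneys for the marker ratios and the spread within groups, and reading the alternatives for Slc5a12, were chosen after seeing the data. The ratios between pairs of the 7 genes were not among the planned tests.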

Additional observations from a re-analysis of the deposited data

Results flagged for a closer look

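In set A, replicate 2 had 178 CPM of Lrp2 while the 3 other kidneys had 91.0 to 94.9 CPM. The gap to the nearest kidney was 0.955 of the range of the group, above the critical value of 0.829 of Dixon's test for 4 samples. In the same set, replicate 3 had 4.03 CPM of Lrpap1 while the others had 1.78 to 1.93 CPM, a gap of 0.934 of the range. In all, 21 groups (7 genes in 3 groups) were tested, and chance marks about 1 group in 20.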

How the results depend on the processing

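Lrp2, Cubn and Dab2 kept their direction and an adjusted p below 0.05 against control in both sets under all 19 alternatives, with log2 changes of -3.03 to -2.63 and -3.24 to -2.54 for Lrp2, and Clcn5 and Ocrl passed under none of them. Lrpap1 in set A passed in 8 of 19 (adjusted p 0.00633 to 0.187), and it was lost with no low-count filter (adjusted p = 0.0558), with limma-trend (adjusted p = 0.0585) and, among kidneys left out, without any control or set A kidney. Lrpap1 in set B passed in 18 of 19, Amn in set A in 3 of 19, among them DESeq2 (adjusted p = 0.0464) and the fit of 2 groups (adjusted p = 0.00346), and Amn in set B in 10 of 19, not in the fit of 2 groups (adjusted p = 0.0640). With kidneys left out, 3 to 5 of the 7 genes passed for set A and 3 to 5 for set B, with 3 in set B only without control replicate 2. The count of genes different between the sets was 1, and it was 27 in DESeq2, 6 with no low-count filter, 0 in the fit of 2 groups, 0 in limma-trend and 0 to 7 with kidneys left out (7 without set B replicate 4 and 3 without set B replicate 2); the cause was not tested. The correlation of same-numbered kidneys lay between -0.055 and 0.045, so no pairing by replicate number was seen. Kidneys of different numbers were not compared, so pairing in another order was not tested. With the replicate number as a block, 2491 genes passed for set A and 2531 for set B, against 2599 and 2659 without it, Lrpap1 in set A had an adjusted p of 0.0987, and the Cubn difference between the sets was -0.0005. That difference was -0.0121 in limma-trend and -0.32 to 0.40 with kidneys left out. The Lrp2 difference between the sets was -0.48 to 0.21 with kidneys left out, with the sign turned without set A replicate 2 or set B replicate 4, and the Clcn5 change in set B was -0.11 to 0.16. No scaling moved the median of all genes by more than 0.1 on the log2 scale. Depth limits what can be said of Amn and Lrpap1, with 0 to 56 and 9 to 183 counts per ischemic kidney.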
